A study of Mus musculus with 12 samples.

Results

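The 40 genes described here encode the machinery of DNA replication and of mitosis. They were taken by symbol from a fixed list, each of the 40 symbols matched 1 row of a count table of 54532 genes, and all 40 passed the low-count filter and entered every test. Expression was measured by RNA-seq in 12 libraries of cells sorted from mouse ovaries at E15.5 (embryonic day). The dams had been given dexamethasone (dex, a synthetic glucocorticoid) or its saline vehicle, the dex dose being 10 µg per g body weight, in 4 daily intraperitoneal injections from E12.5 to E15.5. All embryos carried the Tg(Pou5f1-EGFP)2Mnn transgene, in which Pou5f1 (OCT4) regulatory sequence drives GFP in germ cells, and no group lacked it. The 4 groups of 3 libraries were GFP-positive germ cells after dex, GFP-positive germ cells after saline, GFP-negative somatic cells after dex and GFP-negative somatic cells after saline. Each library was made from ovaries pooled over at least 2 independently dosed litters, so the spread between libraries is a spread between pools and not between embryos.

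In a dividing cell, the MCM helicase is loaded onto replication origins in G1, when D-type cyclins with their kinases release E2F transcription factors from the retinoblastoma protein, and E-type cyclins then help to fire the origins. Cyclin A and B partners of Cdk1 drive the later phases, and the aurora and polo kinases, kinesin motors and centromere proteins separate the chromosomes. Female germ cells stop mitotic division in the fetal ovary, replicate their DNA a last time and enter meiotic prophase, whereas somatic cells of the same ovary are a mixture of dividing and quiescent cells. Several mitotic genes also have uses in meiosis, so a transcript of this list does not by itself mark a cell in mitosis. In these sorted but unsynchronised bulk samples, fewer cells expressing a gene and less RNA per cell cannot be told apart.

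Library totals lay between 14658503 and 18245507 counts, with 23206 to 26454 genes detected. Levels are given in CPM, the counts scaled to a common library size after TMM, and a floor of 3 counts was worth 0.169 to 0.201 CPM. The sort could be read from markers. In saline, 8 of 8 germ cell markers were higher in the germ cells, with a median log2 difference of 8.86, and their summed level in somatic libraries was at most 0.664% of that in the germ cells of the same treatment. Meiotic prophase genes were at a summed 9340 to 10100 CPM in saline germ cells and 81.2 to 99.9 CPM in saline somatic cells. In the germ libraries, the summed level of 11 pregranulosa markers was 2.47% to 10.1% of the somatic level under the same treatment, and that of 10 stromal markers 0.541% to 1.09%. The shares were larger for 10 macrophage markers (13.6% to 17.2% in saline, 30.5% to 41.6% in dex) and 7 endothelial markers (13.9% to 20.2%). Macrophage markers in germ libraries summed to 35.3 to 44.7 CPM in saline and 37.6 to 51.2 CPM in dex. In somatic libraries they summed to 219 to 289 CPM in saline and 65.4 to 156 CPM in dex. The larger share in dex thus goes with a smaller somatic sum. The endothelial sum holds Tek, called higher in germ cells. Shares lay at 4.94% to 6.81% for 6 perivascular markers and 0.106% to 0.52% for 8 erythroid markers. Among the 40 genes, the median coefficient of variation between libraries of a group was 7.3% in saline germ cells, 5.53% in dex germ cells, 4.23% in saline somatic cells and 6.83% in dex somatic cells.

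The promoters of the members were searched for elements by which such genes are often described. Of the 40 genes, 30 had an entry among RefSeq windows of 300 bases (250 before to 50 after the transcript start, GRCm38.p6), giving 32 windows, and Mcm4, Gins1, Gins2, Ccnd1, Ccnd2, Ccne2, Ccna2, Aurkb, Kif20a and Tpx2 had none. Both strands were searched for the CHR element TTTGAA, a core of promoters active in G2 and M phase, for the E2F-like letters TTTGGCG, its variant TTTCGCG and its other variant TTTCCCG, and for CCAAT, the letters that NF-Y recognises. The CHR letters were present in 12 of 16 windows (75.0%) of the cyclin A and B, Cdk1, mitosis and chromatin members, in 1 of 16 (6.2%) of the replication and G1/S members, and in 17.9% of all 32851 windows in the table. The E2F-like letters were present in 6 of 16 windows (37.5%) of the replication and G1/S members and in 5.6% of all windows. They were present in 2 of 16 windows of the cyclin A and B, Cdk1, mitosis and chromatin members. Within the replication and G1/S members, they were in 6 of 8 windows (75.0%) of the helicase group. The clamp and nucleotide supply genes had them in 0 of 4 windows, as did the G1 and G1/S group. CCAAT was present in 78.1% of the members' windows and 37.4% of all windows. These shares are descriptions with no test, and a match is not a binding site. The stretches below run from 120 bases before to 30 bases after the RefSeq start, 5′ to 3′ along the gene, with matched letters of any of the 3 elements in capitals on either strand (TTCAAA and ATTGG are the reverse complements of the CHR and CCAAT letters). They were chosen to show Mcm6 as a helicase promoter, Cdk1 and Kif11 as CHR promoters, the cyclin B pair, which differed in direction between cell types, Bub1, the most abundant of the 40 per kilobase in germ cells, and E2f1, the member that changed with dex.
Mcm6, chr1:128359676-128359825, minus strand: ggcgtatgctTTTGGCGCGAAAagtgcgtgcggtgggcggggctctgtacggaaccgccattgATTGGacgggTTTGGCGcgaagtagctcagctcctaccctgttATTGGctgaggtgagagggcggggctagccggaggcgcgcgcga
Cdk1, chr10:69352883-69353032, minus strand: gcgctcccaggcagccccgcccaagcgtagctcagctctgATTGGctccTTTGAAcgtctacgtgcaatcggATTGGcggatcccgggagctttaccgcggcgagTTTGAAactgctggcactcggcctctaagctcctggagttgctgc
Kif11, chr19:37376262-37376411, plus strand: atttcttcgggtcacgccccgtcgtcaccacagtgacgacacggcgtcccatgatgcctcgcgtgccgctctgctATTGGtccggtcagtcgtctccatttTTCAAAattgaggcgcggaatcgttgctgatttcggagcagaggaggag
Ccnb2, chr9:70421525-70421674, minus strand: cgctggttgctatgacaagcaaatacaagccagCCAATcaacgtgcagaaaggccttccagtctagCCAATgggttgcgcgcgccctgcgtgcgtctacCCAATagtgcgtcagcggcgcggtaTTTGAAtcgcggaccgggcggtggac
Ccnb1, chr13:100786457-100786606, minus strand: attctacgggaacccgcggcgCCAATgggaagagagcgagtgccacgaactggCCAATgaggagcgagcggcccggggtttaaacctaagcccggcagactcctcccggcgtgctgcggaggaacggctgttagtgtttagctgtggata
Bub1, chr2:127831830-127831979, minus strand: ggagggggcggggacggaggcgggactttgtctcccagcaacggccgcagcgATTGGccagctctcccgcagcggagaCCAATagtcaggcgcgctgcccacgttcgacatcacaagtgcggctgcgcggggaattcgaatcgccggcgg
E2f1, chr2:154569397-154569546, minus strand: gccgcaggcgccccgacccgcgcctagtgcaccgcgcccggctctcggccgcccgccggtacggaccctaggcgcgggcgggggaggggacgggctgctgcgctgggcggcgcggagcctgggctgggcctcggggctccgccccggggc

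In these stretches Cdk1 and Ccnb2 carried CHR letters beside CCAAT letters, whereas Ccnb1 and Bub1 carried CCAAT letters only and E2f1 none of the 3 elements. Members of both directions were found with and without CHR letters. Of the 13 members with CHR letters in the 300-base window, 6 were higher and 5 lower in germ cells in saline, and of the 17 without, 6 were higher and 9 lower.

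The first comparison asked how the replication and mitosis genes differed between germ cells and somatic cells without dex. Of the 40 genes, 16 were higher in saline germ cells, 20 were lower, and 4 did not pass the test (edgeR's quasi-likelihood test, Benjamini-Hochberg adjusted p of at most 0.05 over all genes tested). Differences of this kind were the rule between these cell types: of all 17941 genes tested, 86.1% were called, 43.1% as higher and 42.9% as lower. The number of members called is therefore near the background, and what follows describes the direction and size of each. The median log2 difference of the 40 genes was -0.17, with a range from -5.69 (Ccnd2) to 3.64 (Ccne2), and that of all genes was 0.00. No called member changed sign under another scaling of the libraries. The extremes were Ccne2 (ENSMUSG00000028212, chr4:11191351-11204779, plus strand) and Bub1 (ENSMUSG00000027379, chr2:127801122-127831865, minus strand) among the genes higher in germ cells. Among those lower they were Ccnd2 (ENSMUSG00000000184, chr6:127125162-127152193, minus strand) and Aurkb (ENSMUSG00000020897, chr11:69045647-69051664, plus strand), all in GRCm38 coordinates.

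**Figure D1:**
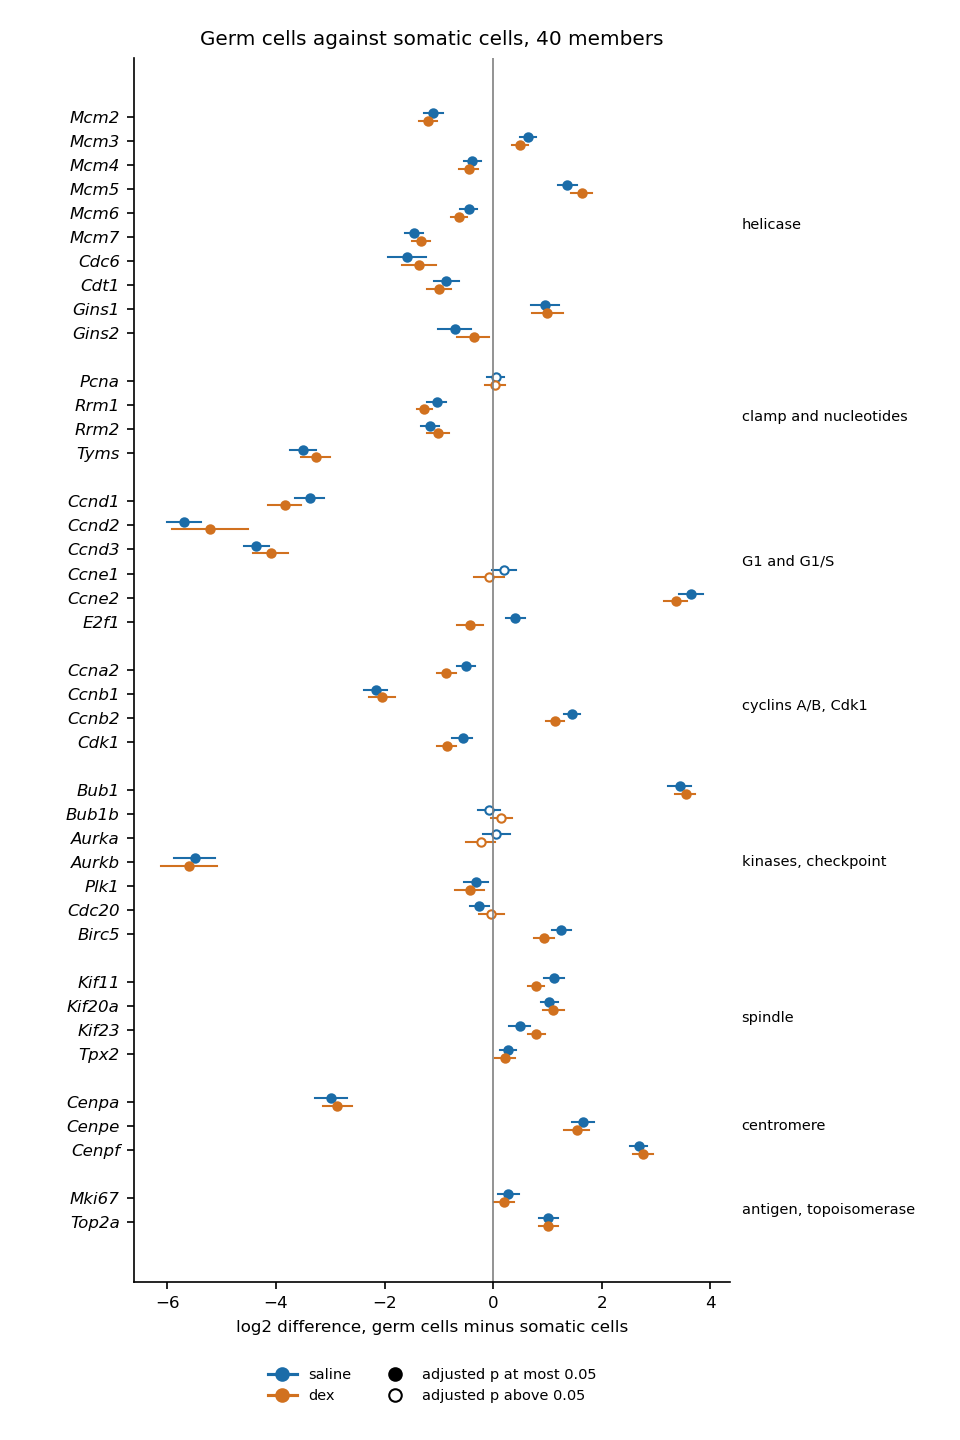
Log2 difference between germ cells and somatic cells (x axis) for each of the 40 genes (y axis, grouped by role) in saline (blue) and in dex (orange). Points are edgeR estimates, bars are 95% intervals not adjusted for the number of genes, and filled points passed an adjusted p of at most 0.05. Ccne2, Bub1 and Cenpf lay farthest to the right and Ccnd2, Aurkb and Ccnd3 farthest to the left, and E2f1 was to the right of 0 in saline and to the left in dex.

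In the helicase group, 3 of 10 members were higher and 7 lower in saline germ cells. Mcm5, a subunit of the replicative helicase, was the highest, at 251, 305 and 290 CPM in the germ libraries and 109, 111 and 110 CPM in the somatic libraries. The germ libraries were all above the somatic ones (2.59-fold, log2 difference 1.37 ± 0.08 SE, adjusted p = 4.86e-10). Cdc6, which loads the helicase onto origins, was the lowest, at 6.66, 6.82 and 6.29 CPM in germ cells against 19.7, 23.5 and 16.6 CPM in somatic cells (3-fold lower, log2 -1.59 ± 0.16, adjusted p = 2.78e-07). Mcm2 read 60.9, 51.4 and 61.7 CPM in germ cells against 125, 122 and 129 CPM in somatic cells, again with no overlap (log2 -1.10 ± 0.08). Mcm3 (0.64 ± 0.07) and Gins1 (0.96 ± 0.12), a subunit of the complex that activates the helicase, were the other members higher in germ cells. Mcm4, Mcm6, Mcm7, Cdt1 and Gins2 were lower by 0.38 to 1.46 on the log2 scale. Gins2 shares 67.3% of its exon bases with Gse1 on the opposite strand, and since the strand setting of the counting is not given in the sources used here, its value is uncertain. Of Mcm7, 12.6% of the exon bases overlap other genes, and it has a named pseudogene.

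The 6 MCM subunits form a ring with 1 copy of each, yet their transcripts were not at equal levels. The ratio of the highest to the lowest subunit per kilobase did not overlap between the cell types, which need not hold for other pairs. Per kilobase of the gene lengths in the count table, Mcm5 was 7.17 to 10.3 times the level of Mcm2 within each saline germ library, Mcm5 being the highest and Mcm2 the lowest of the 6 in all 3. In the saline somatic libraries Mcm6 was the highest and Mcm2 the lowest, 2.71 to 2.99 times apart. Which subunit is lowest depends on these lengths. In mean CPM without them it was Mcm7 in saline germ cells (51.6) and Mcm5 in saline somatic cells (110). The summed level of the 6 subunits was 209 ± 4.73 CPM per kilobase in saline germ cells and 203 ± 1.18 in saline somatic cells (mean ± SD, n = 3), so the sum was close while the composition was not. In dex the ratio of the highest to the lowest subunit was 9.75 to 11.6 in germ cells and 2.93 to 3.13 in somatic cells.

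Among the genes of the sliding clamp and of nucleotide supply, none was called higher in germ cells and 3 of 4 were lower. Pcna, the clamp that holds the polymerase on DNA, read 135, 145 and 153 CPM in saline germ cells and 144, 144 and 134 CPM in saline somatic cells. The groups overlapped, and the log2 difference was 0.05 with a 95% interval from -0.11 to 0.21. Tyms, thymidylate synthase, read 4.91, 4.37 and 4.86 CPM in germ cells against 54.6, 53.8 and 53.5 CPM in somatic cells. This was the largest difference of the group (11.4-fold lower, log2 -3.51 ± 0.11). The ribonucleotide reductase subunits Rrm1 (-1.04 ± 0.08) and Rrm2 (-1.16 ± 0.08) were lower to a like extent. Tyms and Pcna each have named pseudogenes in the annotation, and the treatment of fragments that map to several places is not given in the sources used here.

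The G1 and G1/S group held the extremes of the whole list. The D-type cyclins, partners of Cdk4 and Cdk6, were all lower in germ cells. Ccnd1 read 5.43, 4.43 and 5.77 CPM in saline germ cells and 51.7, 55.3 and 57.4 CPM in saline somatic cells (10.4-fold lower, log2 -3.38 ± 0.12), and 23.4% of its exon bases overlap LTO1 on the opposite strand, which leaves its value uncertain. Ccnd2 read 4.91, 6.94 and 9.03 CPM against 374, 351 and 370 CPM (51.6-fold lower, -5.69 ± 0.14). Ccnd3 read 14.7, 20.2 and 16.3 CPM against 344, 342 and 376 CPM (20.5-fold lower, -4.36 ± 0.11). Summed per kilobase, the D-type cyclins stood at 3.79 ± 0.383 in saline germ cells and 90.8 ± 3.32 in saline somatic cells. In the somatic cells Ccnd2 and Ccnd3 made up most of the sum, with 41.7% to 44.2% and 43.6% to 45.4%.

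The D-type cyclins and Aurkb in the germ libraries were set beside the somatic markers there. Ccnd2 in the 3 saline germ libraries was 1.35%, 1.90% and 2.47% of its somatic mean, and in the 3 dex germ libraries 1.01%, 4.26% and 2.83%. In the same libraries the pregranulosa marker sum was 2.96%, 4.87% and 6.01%, then 2.47%, 10.1% and 7.75%. Both were highest in dex germ replicate 2 and lowest in dex germ replicate 1. Ccnd3 was at 4.16%, 5.71% and 4.62% in saline, in another order than the pregranulosa sum. In dex it was at 4.71%, 7.3% and 5.72%, in the same order as that sum. Ccnd1 was at 9.91%, 8.09% and 10.5% in saline, and in dex, at 7.8%, 6.32% and 7.03%, it was lowest where the pregranulosa sum was highest. Ccnd1 and Ccnd3 lay above the pregranulosa share in some libraries and below it in others, Ccnd1 above it in all 3 of saline. Aurkb, at 1.73% to 2.65% in saline, lay below it. In dex Aurkb was at 1.03%, 2.98% and 2.17%, also below it and in the same order. All of these lay below the summed macrophage and endothelial shares of the same libraries. Those sums rest in part on markers unlike the rest of their lists. Tek, an endothelial marker, was higher in germ cells (log2 1.16 ± 0.14 in saline, 1.66 ± 0.14 in dex). Mrc1, a macrophage marker, was at -1.20 in saline and -0.05 in dex. The median log2 differences in saline were -5.57 for endothelial and -4.43 for macrophage markers. None of the 11 pregranulosa markers was at 0 counts in all 3 libraries of a germ group. The part of carried-over somatic RNA in these levels was not tested.

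**Figure D2:**
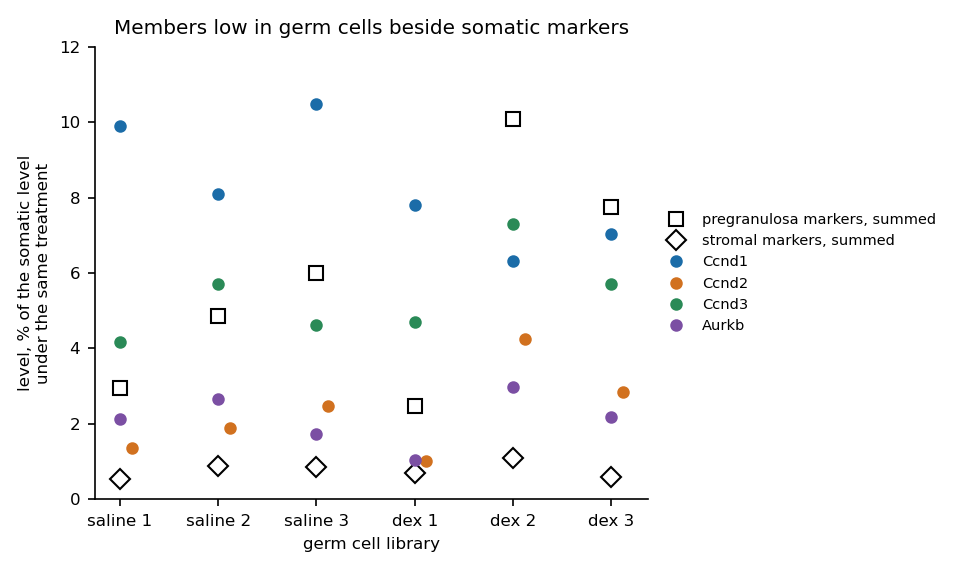
Level in each of the 6 germ cell libraries (x axis) as a percent of the mean of the 3 somatic libraries of the same treatment (y axis). Circles are Ccnd1, Ccnd2, Ccnd3 and Aurkb, open squares the sum of 11 pregranulosa markers and open diamonds the sum of 10 stromal markers. Ccnd2 ran from 1.01% to 4.26% and stayed below the pregranulosa share in all 6 libraries.

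The E-type cyclins, which activate Cdk2 at the start of S phase, differed from each other. Ccne2 read 145, 146 and 178 CPM in saline germ cells and 12.96, 12.89 and 12.01 CPM in saline somatic cells, the largest excess in germ cells of the 40 genes (log2 3.64 ± 0.10). Ccne1 read 25.3, 25.1 and 26.5 CPM against 22.6, 23.0 and 21.5 CPM, a difference that did not pass the test (log2 0.21, 95% interval -0.02 to 0.43), although the germ libraries were all above the somatic ones. Per kilobase, Ccne2 made up 81.3% to 83.6% of the E-type cyclin sum in germ cells and 29.8% to 30.4% in somatic cells. A share of 17.4% of the exon bases of Ccne2 overlaps Ints8 on the opposite strand. E2f1, the transcription factor of the G1/S genes, read 57.4, 57.1 and 58.1 CPM in germ cells against 41.2, 44.2 and 45.7 CPM in somatic cells (log2 0.41 ± 0.08, adjusted p = 0.000201).

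Of the cyclins of S, G2 and M phase and their kinase, 1 of 4 was higher and 3 were lower in germ cells. The B-type cyclins moved in opposite directions. Ccnb2 read 129, 121 and 119 CPM in saline germ cells and 46.9, 43.5 and 45.0 CPM in saline somatic cells (2.74-fold higher, log2 1.46 ± 0.07). Ccnb1, the main mitotic partner of Cdk1, was at 13.3 ± 0.287 CPM (SD, n = 3) against 56.0, 63.6 and 60.8 CPM (4.48-fold lower, -2.16 ± 0.10). Cdk1 itself read 41.7, 39.3 and 45.6 CPM against 64.5, 65.1 and 59.1 CPM (-0.56 ± 0.09), and Ccna2, with 510 of its 4083 exon bases overlapping Exosc9 on the opposite strand, was at -0.50 ± 0.07. All 4 separated the germ from the somatic libraries without overlap. This was common among the 40 genes, of which 17 had all germ libraries above and 20 all below the somatic ones. The share of all genes that did so was not computed. Ccnb1, Ccnb2 and Cdk1 have named pseudogenes, as do Ccnd3 and Cdc20, which leaves the assignment of some fragments open to the counting.

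Among the mitotic kinases, the spindle checkpoint and the chromosomal passenger genes, 2 of 7 were higher, 3 lower and 2 not called. Bub1, a checkpoint kinase of the kinetochore, read 433, 468 and 513 CPM in saline germ cells and 42.8, 48.7 and 39.8 CPM in saline somatic cells (10.9-fold, log2 3.44 ± 0.10). Per kilobase it was the most abundant of the 40 genes in germ cells, at 108 CPM per kilobase, and ranked 30 of 40 in somatic cells. Its relative Bub1b, also of the spindle checkpoint, read 65.8, 50.2 and 59.7 CPM against 67.0, 58.8 and 60.4 CPM and was not called (log2 -0.07, 95% interval -0.28 to 0.13). Aurkb, the kinase of the passenger complex, read 0.840, 1.05 and 0.686 CPM against 37.1, 41.4 and 40.2 CPM (45.4-fold lower, -5.50 ± 0.18). Birc5, the survivin subunit of the same complex, was higher in germ cells (2.4-fold, 1.26 ± 0.08). Aurka, the spindle pole kinase, was not called (0.06, 95% interval -0.19 to 0.31), and Plk1 (-0.32 ± 0.10) and Cdc20 (-0.26 ± 0.08), an activator of the anaphase-promoting complex, were slightly lower.

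The genes of the spindle, of the centromere and of chromosome structure were mostly higher in germ cells. All 4 spindle members were called higher, from Tpx2, a spindle assembly factor, to the motor Kif11. Tpx2 read 111, 114 and 108 CPM in saline germ cells and 94.7, 93.7 and 88.3 CPM in saline somatic cells (log2 0.28 ± 0.07, adjusted p = 0.00137). Kif11 read 157, 138 and 145 CPM against 67.7, 75.4 and 60.6 CPM (2.18-fold, 1.12 ± 0.09). Kif20a and Kif23, kinesins of cytokinesis, were at 1.04 ± 0.07 and 0.49 ± 0.09. A share of 29.3% of the exon bases of Kif20a overlaps Cdc23 on the opposite strand, and its coordinates in the count table differ from those in GENCODE M21.

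At the centromere, Cenpf read 484, 499 and 464 CPM in saline germ cells and 73.1, 77.9 and 76.1 CPM in saline somatic cells (6.42-fold, log2 2.68 ± 0.07), and the kinetochore motor Cenpe was at 1.66 ± 0.09. Cenpa, the histone variant that marks the centromere, went the other way, at 4.91, 7.29 and 6.91 CPM against 51.6, 53.1 and 49.7 CPM (7.97-fold lower, -2.99 ± 0.14). Mki67, the widely used proliferation antigen, read 282, 345 and 294 CPM against 239, 277 and 249 CPM (1.21-fold, 0.28 ± 0.09, adjusted p = 0.00882). Its call was lost when 1 of 2 libraries was left out, with adjusted p = 0.0514 without germ saline replicate 2 and 0.0843 without soma saline replicate 1. Top2a, the topoisomerase that untangles replicated DNA, read 499, 527 and 591 CPM against 273, 278 and 256 CPM (2.02-fold, 1.01 ± 0.08).

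**Figure D3:**
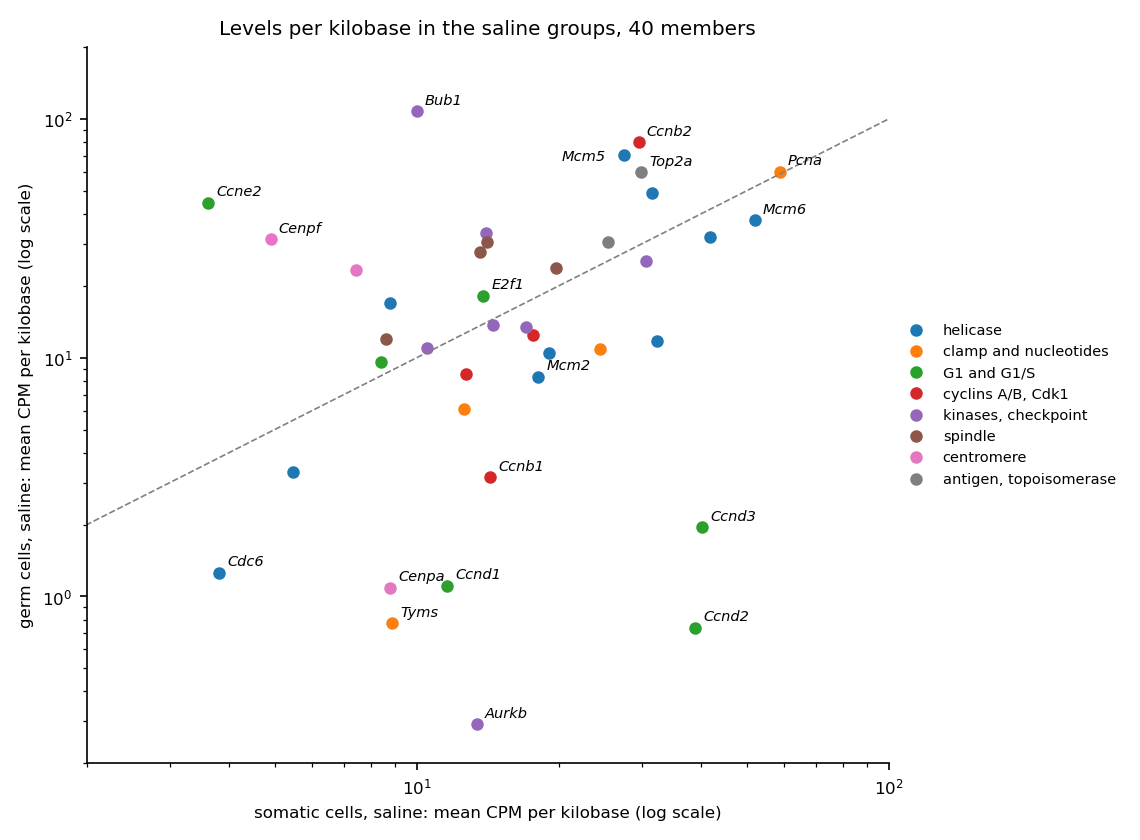
Mean level per kilobase in saline somatic cells (x axis) and in saline germ cells (y axis) of the 40 genes, both in CPM per kilobase on log scales, coloured by role, with equal levels on the dashed line. Bub1 (108 in germ cells, 10.0 in somatic cells) and Ccne2 (44.6 and 3.61) lay far above the line, and Ccnd2 (0.740 and 38.8) and Aurkb (0.291 and 13.4) far below it, while Pcna (60.1 and 58.7) lay on it.

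The order of levels per kilobase therefore differed between the cell types. In saline somatic cells the most abundant were Pcna (58.7 CPM per kilobase), Mcm6 (52.0), Mcm4 (41.8), Ccnd3 (40.3) and Ccnd2 (38.8), with Mcm4 and Ccnd3, and Ccnd3 and Ccnd2, overlapping between libraries. The least abundant were Ccne2 (3.61), Cdc6 (3.81) and Cenpf (4.90). In saline germ cells the order began with Bub1 (108), Ccnb2 (80.2), Mcm5 (70.6), Pcna (60.1) and Top2a (59.8), of which Mcm5 overlapped Pcna and Pcna overlapped Top2a between libraries. It ended with Aurkb (0.291), Ccnd2 (0.740) and Tyms (0.774). These orders depend on the gene lengths in the count table. In mean CPM, Top2a (539) and Cenpf (482) were above Bub1 (472) in saline germ cells. For Kif11 the length used was 4819 bases, against 7461 exon bases in GENCODE M21.

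The wider pathway was read from further lists. Of 44 other replication genes, 34 were higher and 6 lower in saline germ cells, with a median log2 difference of 1.03, and of 56 other mitosis genes, 43 were higher and 11 lower, with a median of 1.31. Of all genes tested, 43.1% were called higher and 42.9% lower, which is the background for these and the following counts. The medians of the 2 lists lay above that of the 40 genes (-0.17), a description with no test. Mcm8, a helicase of recombination, was at 4.08 ± 0.09 and the histone chaperone Asf1b at 3.08 ± 0.10, whereas the polymerase subunit Pold4 was at -3.96 ± 0.23 and thymidine kinase Tk1 at -2.92 ± 0.18. Among the mitosis genes, the condensin subunit Ncapg (3.74 ± 0.08) and the motor Kif18a (3.07 ± 0.08) were highest, and the phosphatases Cdc25b (-3.67 ± 0.15) and Cdc25c (-2.33 ± 0.19), activators of Cdk1, lowest. Of 26 regulators around E2F and the pocket proteins, 9 were higher and 15 lower, from Myc (-6.33 ± 0.19) to Rb1 (2.67 ± 0.09). Of 8 CDK inhibitors, 3 were higher and 3 lower. Cdkn2a read 9.89, 13.46 and 11.09 CPM in germ cells and 0.126, 0 and 0.243 CPM in somatic cells, and Cdkn1a was at -4.00 ± 0.15 and Cdkn1b at -3.36 ± 0.10.

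Relatives of members that were low in germ cells were added after values had been seen. Ccnb3, a B-type cyclin, read 822, 662 and 744 CPM in saline germ cells and 0.566, 1.10 and 0.364 CPM in saline somatic cells (log2 10.11). Per kilobase it made up 63.9% to 67.3% of the B-type cyclin sum in germ cells, against 1.20% to 1.36% for Ccnb1, and in somatic cells 0.182% to 0.549% against 30.2% to 34.5%. Aurkc, the third aurora kinase, read 2.26, 2.16 and 3.03 CPM against 0.189, 0.129 and 0.121 CPM, which in the somatic libraries is 3 counts or fewer, so no fold is given. It made up 10.7% to 15.1% of the aurora kinase sum in germ cells, Aurka 83.1% to 87.3% and Aurkb 1.77% to 3.07%. In somatic cells Aurkb made up 54.3% to 57.9%.

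The second comparison asked whether dex changed these genes in germ cells. None of the 40 was called by edgeR's quasi-likelihood test, where 0.208% of all 16857 genes tested were called. DESeq2 called 0 of the 40, and 9 had an unadjusted p below 0.05, 3 higher and 6 lower, which is 22.5% of the members beside 11.6% of all genes. The median log2 difference of the 40 was 0.01, as it was over all genes, and single values ran from -0.61 (Ccnd1) to 0.41 (Ccnd3). For 33 of the 40 the 95% interval lay within 0.5 of 0 on the log2 scale. The members whose intervals reached farther were low in germ cells or varied between libraries, such as Aurkb and Ccnd2.

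Mki67 read 340, 335 and 280 CPM in dex germ cells, within reach of the saline values of 282, 345 and 294 (log2 0.06, 95% interval -0.14 to 0.26). Top2a read 558, 607 and 591 CPM against 499, 527 and 591 (0.13 ± 0.08), Mcm2 53.7, 57.9 and 52.8 against 60.9, 51.4 and 61.7, Pcna 132, 143 and 159 against 135, 145 and 153, and Ccne1 26.2, 26.5 and 22.4 against 25.3, 25.1 and 26.5. In Mki67, Top2a, Mcm2, Pcna and Ccne1 the groups overlapped. The lowest unadjusted p values were those of Ccnb2, Birc5 and Cdk1. Ccnb2 read 105, 95.9 and 102 CPM in dex and 129, 121 and 119 CPM in saline (log2 -0.27 ± 0.07, adjusted p = 0.153). Birc5 read 98.7, 90.7 and 102 against 111, 108 and 122 (-0.22 ± 0.07, adjusted p = 0.282), and Cdk1 read 36.3, 34.1 and 34.7 against 41.7, 39.3 and 45.6 (-0.26 ± 0.09, adjusted p = 0.289). The dex libraries lay below all saline libraries in these 3 genes, but none passed the test. The 3 were picked by their p values, so the separation adds no support. Of the 40 genes, 6 had all dex libraries below and 3 all above the saline ones, and the share over all genes was not computed. Ccnb1 read 12.59, 12.61 and 13.99 against 13.3 ± 0.287 (SD, n = 3). Without the low-count filter Ccnb2 was called (adjusted p = 0.0299).

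The D-type cyclins were not called in germ cells either. Ccnd1 read 3.75, 3.04 and 3.38 CPM in dex and 5.43, 4.43 and 5.77 in saline, with all dex libraries lower (log2 -0.61 ± 0.21, adjusted p = 0.306). Ccnd3 read 18.01, 27.93 and 21.86 against 14.7, 20.2 and 16.3 (0.41 ± 0.17, adjusted p = 0.386). Ccnd2 read 3.21, 13.51 and 8.98 against 4.91, 6.94 and 9.03, with the widest spread of the 40 genes in both germ groups (coefficient of variation 60.2% in dex and 29.6% in saline), and its sign turned from 0.31 to -0.18 without germ dex replicate 2.

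The third comparison asked the same of the somatic cells. Of the 40 genes, 1 rose and none fell, beside 8.18% of all 16556 genes called. The gene was E2f1 (ENSMUSG00000027490, chr2:154559407-154569892, minus strand, GRCm38), which shares no exon bases with another gene. It read 41.2, 44.2 and 45.7 CPM in saline and 88.9, 73.9 and 77.0 CPM in dex, on 655 to 753 counts in saline libraries and 1295 to 1472 in dex libraries. Every dex library was above every saline library, and the difference was 1.82-fold (log2 0.87 ± 0.08, adjusted p = 1.6e-05). It was called in all 13 alternatives run, with log2 values from 0.79 to 0.91 and adjusted p values from 1.57e-21 to 0.000389.

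**Figure D4:**
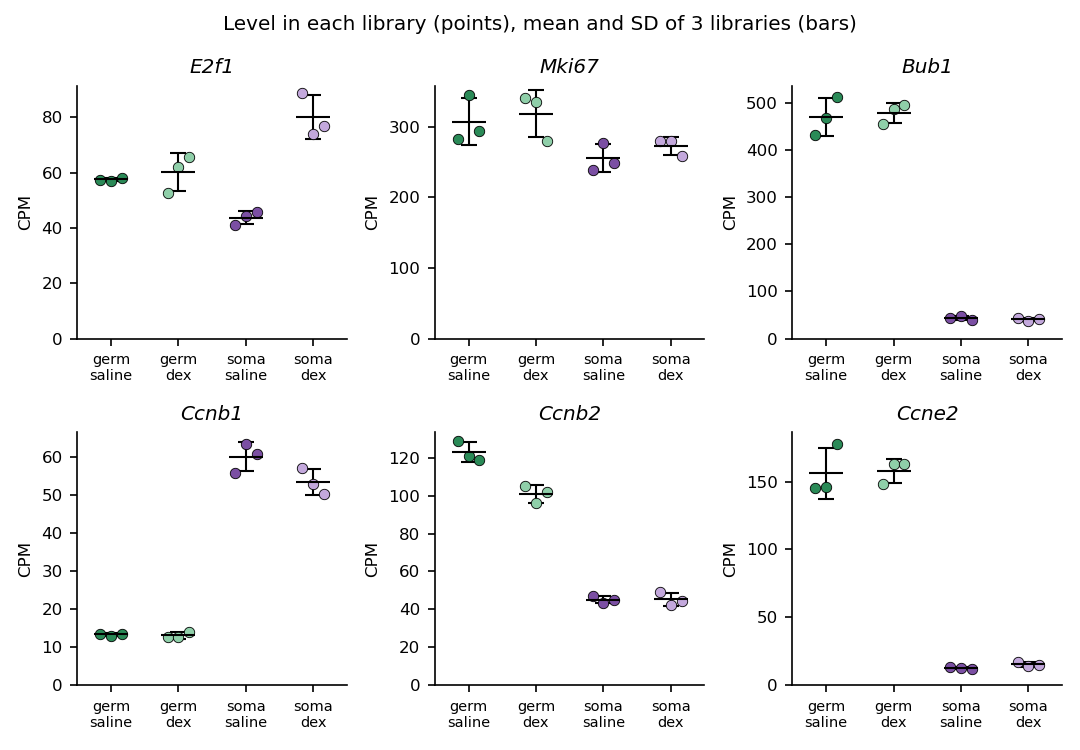
Level in CPM (y axis, from 0) of 6 of the genes in each of the 12 libraries (points), by group (x axis), with the mean and SD of 3 libraries as bars. E2f1 in somatic cells rose from 41.2 to 45.7 CPM in saline to 73.9 to 88.9 CPM in dex, while the other 5 genes were set apart by cell type or, in Mki67, overlapped.

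The other 39 genes had log2 differences between -0.26 and 0.26 in somatic cells, and the median of the 40 was -0.02. For 38 of the 40 the 95% interval lay within 0.5 of 0. Unadjusted p values were below 0.05 for 9 genes, 22.5% beside 20.9% of all genes. Bub1b (-0.26 ± 0.07, adjusted p = 0.0541), Cdc20 (-0.25 ± 0.08, adjusted p = 0.0879) and Ccnd2 (-0.21 ± 0.07, adjusted p = 0.0781) came next. Ccnd2 read 314, 295 and 342 CPM in dex and 374, 351 and 370 in saline, all dex libraries being lower, and DESeq2 called it (adjusted p = 0.0168). Ccnd1 read 48.0, 51.7 and 44.6 against 51.7, 55.3 and 57.4, and Ccnd3 402, 389 and 356 against 344, 342 and 376. Mki67 read 280, 279 and 258 against 239, 277 and 249 (0.09, 95% interval -0.06 to 0.25), Top2a 306, 286 and 267 against 273, 278 and 256, Cdk1 65.5, 62.2 and 59.6 against 64.5, 65.1 and 59.1, and Ccnb1 57.1, 53.1 and 50.3 against 56.0, 63.6 and 60.8. In Mki67, Top2a, Cdk1 and Ccnb1 the groups overlapped. Mcm2 read 126, 116 and 129 against 125, 122 and 129, Pcna 140, 134 and 143 against 144, 144 and 134, and Ccne1 29.5, 25.0 and 23.7 against 22.6, 23.0 and 21.5.

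**Figure D5:**
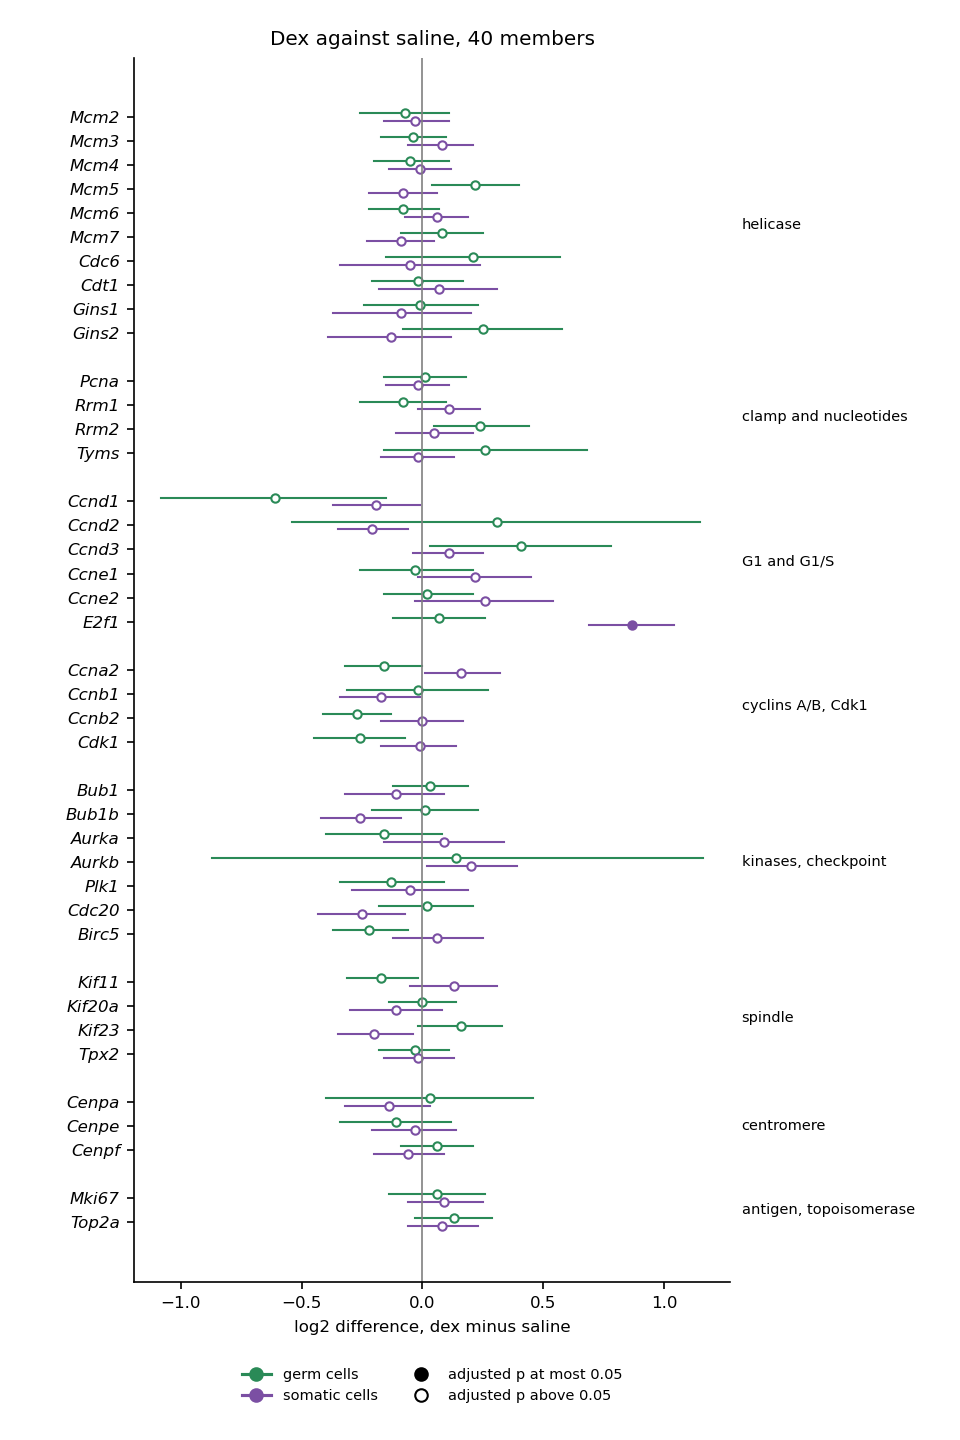
Log2 difference between dex and saline (x axis) for each of the 40 genes (y axis, grouped by role) in germ cells (green) and somatic cells (purple). Points are edgeR estimates, bars are 95% intervals not adjusted for the number of genes, and filled points passed an adjusted p of at most 0.05. E2f1 in somatic cells, at 0.87, is the only filled point.

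Marker sums of other cell types in the somatic libraries differed between dex and saline. Macrophage markers summed to 219 to 289 CPM in saline and 65.4 to 156 CPM in dex, with 6 of 10 called lower and none at 0 in all libraries of a group, and germ cell markers to 4.21 to 8.51 CPM in saline and 16.4 to 23.8 CPM in dex, with Dazl called higher (log2 3.43 ± 0.21) and Pou5f1 and Dppa3 at 0 counts in all 3 dex libraries. Dazl read 1.20, 1.35 and 0.971 CPM in saline and 12.9, 12.8 and 12.6 CPM in dex. The part of these differences in the rise of E2f1 was not tested.

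In the wider lists of replication genes, mitosis genes and regulators around E2F and the pocket proteins, no gene was called with dex. In somatic cells 0 of 44 other replication genes, 0 of 56 other mitosis genes and 0 of 26 regulators passed the test. Unadjusted p was below 0.05 for 4, 5 and 3 of them. In germ cells 0, 0 and 0 passed, with unadjusted p below 0.05 for 11, 11 and 0. Over all genes tested, 8.18% were called in somatic cells and 0.208% in germ cells. Unadjusted p was below 0.05 for 20.9% of all genes in somatic cells and 11.6% in germ cells. Median log2 differences of these lists in somatic cells were 0.04, 0.01 and -0.01. Of 8 CDK inhibitors, 6 could be tested in somatic cells and 1 rose, Cdkn1c, which encodes p57. It read 635, 583 and 591 CPM in saline and 1150, 1100 and 1130 CPM in dex (log2 0.90 ± 0.06, adjusted p = 6.78e-07). In germ cells Cdkn1c read 71.9, 81.8 and 79.9 CPM in saline and 69.1, 76.9 and 71.3 CPM in dex and was not called. Of 10 premeiotic germ cell genes, 9 could be tested in germ cells and 1 was called, Kit, the receptor of stem cell factor. Kit fell from 184, 183 and 158 CPM to 106, 123 and 119 CPM (log2 -0.58 ± 0.08, adjusted p = 0.00959). The list as a whole did not follow it, with a median log2 difference of 0.12 and a range from -0.76 (Dppa3) to 0.81 (Lin28a).

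The last comparison tested whether the effect of dex differed between the cell types. Of the 40 genes, 1 was called, beside 1.62% of all 19390 genes tested. It was again E2f1, whose dex effect was smaller in germ cells than in somatic cells by 0.81 on the log2 scale (-0.81 ± 0.13, adjusted p = 0.00376), and it was called in all 18 alternatives run (log2 -0.87 to -0.71, adjusted p up to 0.0153). In germ cells E2f1 read 52.6, 62.1 and 65.7 CPM in dex, overlapping the saline values of 57.4, 57.1 and 58.1 (log2 0.07, 95% interval -0.12 to 0.26). The other 39 genes had differences between -0.43 and 0.50, and 20 of the 40 had a 95% interval within 0.5 of 0, so this test was less precise than those within a cell type.

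The contrast between the cell types was also made in dex. Of the 40 genes, 15 were higher and 20 lower in dex germ cells than in dex somatic cells, beside 84.3% of all 18171 genes called, 42% as higher and 42.2% as lower. It used other libraries than the contrast in saline. Bub1 (3.55 ± 0.08), Ccne2 (3.37) and Cenpf (2.76) were again the highest, and Aurkb (-5.60), Ccnd2 (-5.21 ± 0.32) and Ccnd3 among the lowest. E2f1 turned from higher in germ cells in saline (0.41 ± 0.08) to lower in dex (-0.43 ± 0.10, adjusted p = 0.00285), and both calls held in all 13 alternatives of each contrast. Gins2, lower in dex germ cells, lost its call under DESeq2's size factors, plain library totals, DESeq2 and no low-count filter. Mki67 was called in dex as well (0.20 ± 0.08, adjusted p = 0.0402), and lost the call in 4 of the alternatives that left out 1 library.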

How the data were processed

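RNA was measured in 12 bulk libraries, grouped by cell type and treatment from the library labels, which call the replicates biological. The authors selected poly-A RNA, primed it with random hexamers, sequenced read pairs, aligned them to mm10 with HISAT2 2.0.5 and counted fragments per gene with featureCounts 1.5.0-p3. The deposited counts were used as they stand, and the gene lengths come from the same table. The authors also deposited FPKM values, used here only to check levels per kilobase. The tables of the authors' own DESeq2 1.20.0 comparisons (fold changes, p-values, copies of the counts) were not used. Strand setting and treatment of multi-mapping fragments are not given in the sources used here.

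Counts were tested with edgeR 4.0.16 (R 4.3.3), quasi-likelihood, TMM, filterByExpr, no covariate, within the 6 libraries of a contrast or all 12 for the difference of effects. P-values were adjusted over all genes tested, and ± beside a log2 value is its SE, while ± beside a level is an SD. Alternatives were other scalings, no filter, DESeq2 1.42.0, all 12 libraries in each fit, a replicate block and leaving out each library. The members and gene lists were chosen with earlier results of these data known. All 40 members were to be accounted for, with values per library for 10 fixed genes (Mki67, Top2a, Cdk1, Ccnb1, Mcm2, Pcna, Ccne1, Ccnd1, Ccnd2 and Ccnd3), for members called in a dex test or the difference, and for the extremes of each role in saline. At most 2 genes up and 2 down were to be named from other lists, with a mean of at least 1 CPM. Other paralogs were added after their values were seen. Floors of 3 counts cover counting error only, since fragments carried no molecular identifiers. No 2 replicates of a group agreed within sampling noise (chi-square per degree of freedom 5.48 to 21.8).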

Additional observations from a re-analysis of the deposited data

Results flagged for a closer look

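E2f1 is listed because its dex effect differed between germ cells and somatic cells by a test of the difference itself, the log2 effect in germ cells minus that in somatic cells being -0.81 (edgeR adjusted p = 0.00376). In somatic cells E2f1 was higher in 3 of 3 dex libraries than in every saline library, while in germ cells the groups overlapped. Cdkn1c, a CDK inhibitor gene outside the list of 40, is listed by the same test at -1.0 (adjusted p = 3.03e-05), with all 3 dex somatic libraries above the saline ones. The groups of 3 libraries are too small for the test of single outlying libraries.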

How the results depend on the processing

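All genes called. In germ cells 35 genes were called with dex, against 420 without the low-count filter, 158 by DESeq2, 64 with all 12 libraries in 1 fit and 17 to 81 when a library was left out (81 without germ dex replicate 1, 17 without germ dex replicate 2 or germ saline replicate 3). In somatic cells the count was 1354, against 803 with all 12 libraries in 1 fit and 754 to 1881 when a library was left out (754, 756 and 888 without soma saline replicates 3, 2 and 1, and 856 without soma dex replicate 2). For the difference of effects it was 314, against 727 without the filter, 620 by DESeq2 and 143 to 384 when a library was left out (143 and 167 when soma saline replicate 3 or 2 was missing, 169 for germ saline 3, 178 for germ dex 2, 188 for germ dex 3, 182 for soma dex 2 and 201 for soma dex 1). Plain library totals moved the split of higher and lower calls from 15 and 20 to 14 and 12 in germ cells, and from 95 and 219 to 117 and 137 for the difference, where upper quartile scaling gave 123 and 143. The causes were not tested.

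Members. No member was called lower with dex in germ cells, against 1 (Ccnb2) without the filter. In somatic cells none was called lower, against 3 without the filter (Ccnd2, Bub1b and Cdc20), 2 with plain library totals (Bub1b and Cdc20), 2 with upper quartile scaling (Ccnd2 and Bub1b), 1 by DESeq2 (Ccnd2), 1 with the replicate block (Bub1b) and 0 to 1 when a library was left out (1 without soma dex replicate 3). No member had a higher difference of effects, against 1 (Ccnd2) without the filter and 0 to 1 when a library was left out (Ccnd2, 0.89 without germ dex replicate 1). Between cell types, Ccne1 was called in saline under DESeq2's size factors (0.24), and Bub1b in dex under those size factors and under plain library totals.

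The sign turned only in members not called. For dex in germ cells the range over left-out libraries was -0.00 to 0.15 for Mki67 and for E2f1, -0.07 to 0.06 for Pcna, -0.07 to 0.04 for Ccne1 and -0.18 to 0.68 for Ccnd2. In somatic cells it was -0.06 to 0.02 for Cdk1 and -0.05 to 0.00 for Mcm2. Between cell types it was -0.01 to 0.10 for Pcna in saline, -0.01 to 0.13 in dex and -0.14 to 0.03 for Ccne1 in dex, and other scalings gave -0.03 for Pcna in saline (upper quartile) and 0.00 for Ccne1 in dex (DESeq2 and its size factors). For the difference of effects it was -0.10 to 0.05 for Mki67, -0.02 to 0.12 for Top2a, -0.14 to 0.00 for Mcm2 and -0.05 to 0.10 for Pcna, with 0.02 (plain totals) and 0.01 (upper quartile) for Mki67 and 0.01 (plain totals) for Mcm2. In dex germ against somatic cells Mki67 (0.17 to 0.32) and Tpx2 (0.19 to 0.30) lost their calls in some of these. Among members at the extremes of their roles, the sign also turned with dex in germ cells for Aurkb (-0.22 to 0.44), Cenpa (-0.13 to 0.13), Ccne2 (-0.03 to 0.13), Bub1 (-0.03 to 0.09) and Tpx2 (-0.07 to 0.01), in somatic cells for Cdc6 (-0.17 to 0.09), Tpx2 (-0.08 to 0.02) and Ccnb2 (-0.06 to 0.03), and in the difference of effects for Aurkb (-0.39 to 0.25) and Tpx2 (-0.06 to 0.04). Over the alternatives of the 10 fixed genes and E2f1 in every contrast, and of the role extremes between cell types, 1013 kept direction and side of the threshold, 28 turned sign, 7 gained a call and 8 lost one.

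Pairing. Libraries with the same replicate number correlated in their deviations at 0.014 to 0.217 between treatments in germ cells, -0.015 to 0.116 in somatic cells and 0.08 to 0.134 between cell types, so not every pair was above 0.1 in any contrast, and the number was not taken to pair libraries. Between the cell types every library correlated best with its own number, and all other pairs were negative. The paper sorted GFP-positive and GFP-negative cells from dissociated ovaries. It does not state that equal replicate numbers mark the same pool. The main tests between cell types treated the libraries as independent. The replicate block, run as an alternative, used the replicate number alone. In the dex tests and the difference it therefore joined dex and saline libraries, which came from different dams. There it does not check pools shared between the cell types. With the replicate block the counts were 49, 1520, 15283, 15044 and 313 for dex in germ cells, dex in somatic cells, the cell types in saline, the cell types in dex and the difference, and among members it changed no call other than that of Bub1b. Depth limits the members with few fragments, and dex intervals are widest for Aurkb and Ccnd2 in germ cells.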

Other observations

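Further relatives of members were looked at after values had been seen. In saline, Ccna1, the A-type cyclin known from meiosis, read 4.33, 3.61 and 2.97 CPM in germ cells and 0.503, 0.322 and 0.485 CPM in somatic cells (log2 3.04 ± 0.36). Per kilobase its level in germ cells was 1.98 ± 0.37 against 12.4 ± 0.233 for Ccna2 (mean ± SD in CPM per kilobase, n = 3). Rrm2b, the p53-inducible ribonucleotide reductase subunit, was higher in germ cells (log2 1.13 ± 0.17) where Rrm2 was lower (-1.16), and the kinesin Kif20b was higher (2.19 ± 0.08), as was Kif20a (1.04).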
